A study of Mus musculus with 6 samples.

Results

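The proteasome is the protease that breaks down ubiquitin-tagged proteins, and its subunits and helper proteins are encoded mainly by genes whose mouse symbols begin with Psm. The genes described here are those of the count table whose symbol is Psma, Psmb, Psmc, Psmd, Psme, Psmf or Psmg followed by a digit, leaving out the immunoproteasome subunits Psmb8, Psmb9 and Psmb10. They number 46 of the 23337 genes of the table, with 16 in the core (Psma and Psmb), 21 in the cap (Psmc and Psmd) and 9 among activators, inhibitor and assembly factors (Psme, Psmf and Psmg). Psmc3ip, a meiotic recombination factor, is among the 46 by its name alone. The stretch group held 3 RNA-seq libraries of primary mouse liver sinusoidal endothelial cells, the vessel-lining cells of the liver, grown on collagen IV and cyclically stretched by 4% at 1 Hz in a Flexcell device. The control group held 3 libraries of the same cells kept without stretch. Cells of both groups were isolated with immunomagnetic beads and serum starved. The duration of stretch and the strain, age, sex and number of the animals are given in none of the sources used here. The p-values therefore measure the spread between these libraries, which may be technical.

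A proteasome consists of a barrel-shaped core capped at its ends. The core stacks rings of alpha subunits, which form the gate, on rings of beta subunits, of which Psmb5, Psmb6 and Psmb7 carry the proteolytic sites. The cap has a base, whose ATPases (Psmc genes) unfold the substrate and thread it into the core, and a lid, which includes Psmd14, the enzyme that removes ubiquitin chains. Other activators can take the place of the cap, and dedicated chaperones assemble core and base. When proteasome activity is blocked, the transcription factor Nfe2l1 is known to raise transcription of the subunit genes together. In endothelial cells, interferon can exchange the catalytic beta subunits for the immunoproteasome forms.

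Stretch libraries held 58503669 to 68489956 counts each and control libraries 48948948 to 57923937. Levels were compared as CPM, the library-size-scaled count, after TMM scaling, and a gene is said to have risen or fallen where edgeR's quasi-likelihood test gave a Benjamini-Hochberg adjusted p under 0.05 over the 14222 genes that passed the filter on low counts. Over all genes tested, 21.4% were higher in stretch libraries and 22.6% were lower. All 10 sinusoidal endothelial markers were detected, and 7 of them were lower in stretch libraries. Their summed level was 10612 to 12061 CPM in stretch and 12371 to 13736 CPM in control libraries. Of 10 hepatocyte markers 8 were higher in stretch libraries, and they summed to 472, 98.9 and 94.6 CPM in stretch against 55.8, 35.1 and 69.6 CPM in control libraries, with stretch replicate 1 above all others. Of 9 tested macrophage markers 7 were higher, with sums of 112 to 154 CPM in stretch and 79.0 to 93.6 CPM in control libraries, while the Kupffer cell marker Clec4f was under 1 CPM in every library. Of 4 cholangiocyte markers 2 were higher, with sums of 82.4 to 112 CPM in stretch and 61.1 to 81.8 CPM in control libraries. Stellate cell markers summed to 26 to 39.6 CPM in stretch and 30.7 to 34.5 CPM in control libraries with Lrat and Hand2 under 1 CPM throughout, and all 5 lymphocyte markers were under 1 CPM throughout. In bulk RNA, fewer cells of a type and less RNA per cell cannot be told apart, and the part of these markers in the results below was not tested beyond leaving out stretch replicate 1.

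After TMM scaling, proteasome genes were mostly a little higher in stretched cells. Of the 45 that could be tested, 21 rose (46.7%), 1 fell (2.22%) and 23 did not pass the threshold. Over all genes tested, 44.0% passed it in either direction, with 21.4% higher and 22.6% lower. The fitted log2 fold change was positive for 38 of the 45 genes and negative for 7, and its median was 0.12 (1.08-fold), against −0.01 for all genes tested. These values depend on the scaling. With libraries scaled by their totals alone, 25 of the 45 were positive and 13 rose. The median was then 0.02, against −0.11 for all genes tested. The 21 genes that rose did so by 1.08-fold to 1.64-fold, with a median log2 fold change of 0.25. Only 9 of the 45 rose by more than 1.2-fold, a size that 15.4% of all genes tested passed in that direction, and only Psmd8 rose by more than 1.5-fold. The 3 stretch libraries lay above all 3 control libraries for 26 of the 45 genes (57.8%), against 26.7% of all genes tested, and below them for Psme1 alone, against 29.2% of all genes tested. Without stretch replicate 1, the library rich in hepatocyte markers, 18 of the proteasome genes rose and none fell, at a threshold that Psme4 then missed (adjusted p = 0.111, edgeR). The share of all counts that fell on the 46 genes was 0.535%, 0.557% and 0.556% in the stretch libraries and 0.502%, 0.521% and 0.511% in the control libraries, without overlap.

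**Figure D1:**
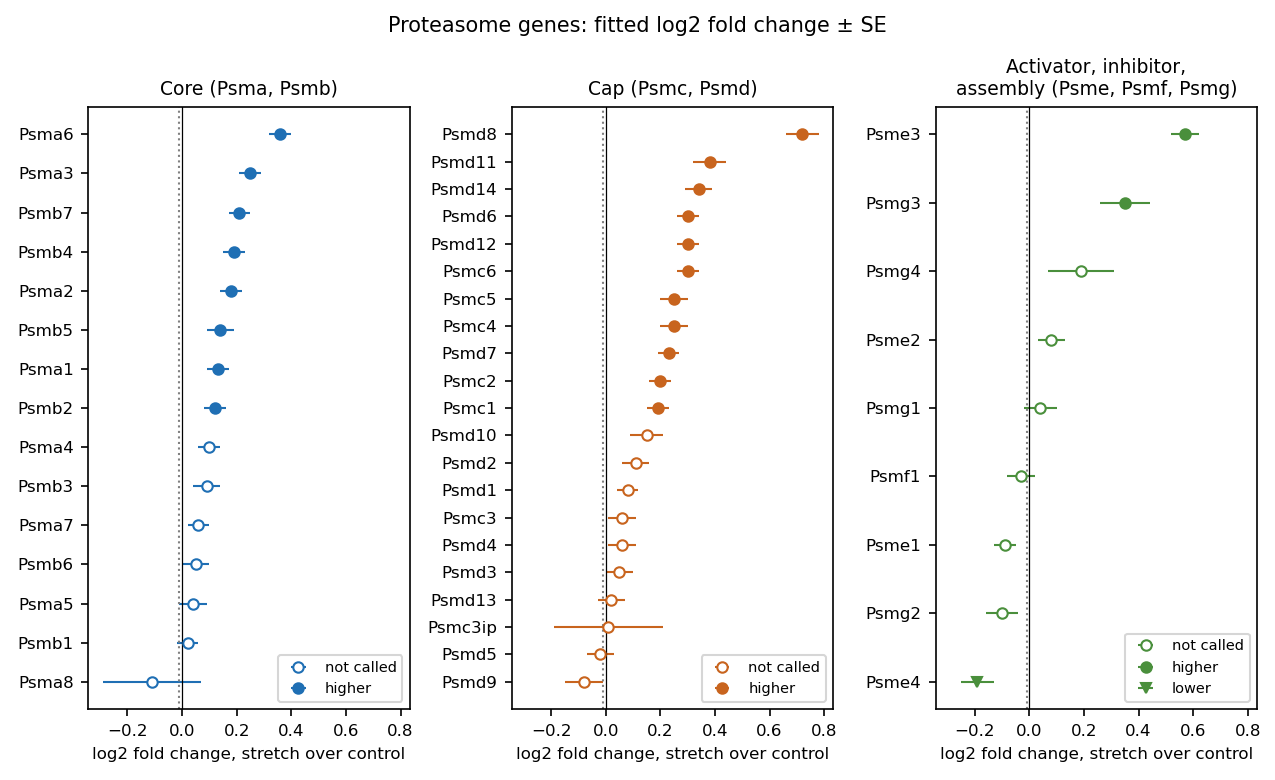
Fitted log2 fold change of stretch over control (horizontal axis) with its standard error for each of the 45 tested proteasome genes, by class. Filled circles rose, the filled triangle fell and open circles did not pass the threshold. The dotted line is the median of all genes tested, −0.01, and Psmd8 (0.72) and Psme3 (0.57) stand farthest to the right.

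Of the 21 genes that rose, all but Psme3 and Psmg3 belonged to the core or the cap. In the core 8 of 15 tested genes rose (53.3%) and none fell, with a median log2 fold change of 0.12. In the cap 11 of 21 rose (52.4%) and none fell, with a median of 0.19. Among activators, inhibitor and assembly factors 2 of 9 rose (22.2%), 1 fell (11.1%) and the median was 0.04. Over all genes tested 21.4% rose and 22.6% fell, so the share that rose in this last class was near that of genes at large. Measured library by library as the median of log2 CPM minus the mean of the control libraries, the cap stood at 0.19, 0.18 and 0.22 in the stretch libraries and at −0.01, 0.02 and −0.00 in the control libraries. The core stood at 0.11, 0.11 and 0.14 in stretch and at −0.01, 0.04 and −0.02 in control libraries. Activators and assembly factors stood at 0.05, 0.04 and 0.01 in stretch and −0.01, 0.04 and −0.01 in control libraries, where the ranges met. All genes tested stood between −0.02 and −0.00 in stretch and between −0.00 and 0.00 in control libraries. The difference between the classes was not tested, since their genes were measured in the same libraries and are not replicates.

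**Figure D2:**
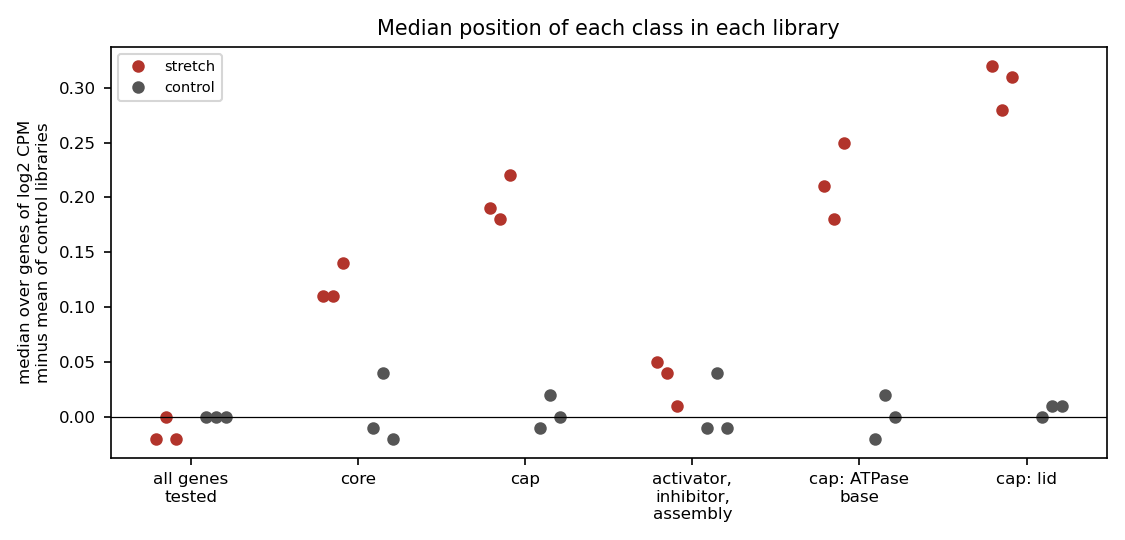
Median over genes of log2 CPM minus the mean of the control libraries (vertical axis) for all genes tested, the proteasome classes and the ATPase base and lid of the cap, with 1 point per library. The lid stands highest, at 0.28 to 0.32 in the stretch libraries against 0.00 to 0.01 in the control libraries.

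Promoter sequences were examined for the antioxidant response element core, the motif that Nfe2l1 and its relatives bind as dimers with small Maf proteins. RefSeq promoter windows on GRCm38.p6, which run from 250 bases before to 50 bases after the start, were found for 38 of the 46 genes. The motif TGACNNNGC, searched on both strands, occurred in 6 of these 38 genes (15.8%), namely Psmb5, Psmb6, Psmc6, Psmd9, Psmd12 and Psme4. It occurred in 14.0% of all 27025 genes with a window and in 17.2% of the 9952 tested genes with one, so its share among proteasome genes was near that of genes at large. It was found in 3 of the 18 genes that rose and in 3 of the 20 others. Shown first are the windows of Psmd8 and Psme3, the genes that rose most, in which the letters of the motif did not occur. The windows of Psmb5, Psmc6 and Psmd12, which rose, and of Psme4, which fell, follow with the motif in capitals. Each is given 5′ to 3′ on the gene's own strand, from 250 bases before to 20 bases after the start. The match begins 47 bases before the start in Psmb5, 227 in Psmc6, 247 in Psmd12 and 7 in Psme4, and in the last 3 it lies on the opposite strand. A match of letters says nothing of whether a factor binds.
Psmd8 (chr7:29180654-29180923, minus strand): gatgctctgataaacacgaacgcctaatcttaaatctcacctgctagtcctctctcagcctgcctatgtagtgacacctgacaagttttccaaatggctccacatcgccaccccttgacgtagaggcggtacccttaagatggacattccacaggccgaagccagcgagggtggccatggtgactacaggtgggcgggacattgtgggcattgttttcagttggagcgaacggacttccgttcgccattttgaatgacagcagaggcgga
Psme3 (chr11:101315963-101316232, plus strand): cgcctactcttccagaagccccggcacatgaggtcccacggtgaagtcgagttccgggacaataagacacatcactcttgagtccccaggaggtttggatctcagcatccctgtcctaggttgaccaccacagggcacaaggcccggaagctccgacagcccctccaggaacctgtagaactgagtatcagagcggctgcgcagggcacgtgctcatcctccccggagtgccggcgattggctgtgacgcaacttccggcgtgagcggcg
Psmb5 (chr14:54617976-54618245, minus strand): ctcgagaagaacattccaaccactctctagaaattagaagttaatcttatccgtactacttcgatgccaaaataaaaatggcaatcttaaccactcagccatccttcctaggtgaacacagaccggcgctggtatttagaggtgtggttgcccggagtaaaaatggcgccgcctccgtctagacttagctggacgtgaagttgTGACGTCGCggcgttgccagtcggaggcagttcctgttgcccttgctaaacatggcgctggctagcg
Psmc6 (chr14:45329574-45329843, plus strand): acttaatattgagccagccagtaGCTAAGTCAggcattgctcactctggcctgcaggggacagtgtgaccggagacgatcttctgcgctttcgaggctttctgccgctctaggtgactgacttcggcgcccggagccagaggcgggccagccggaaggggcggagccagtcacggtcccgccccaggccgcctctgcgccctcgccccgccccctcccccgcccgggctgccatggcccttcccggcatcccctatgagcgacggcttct
Psmd12 (chr11:107479278-107479547, plus strand): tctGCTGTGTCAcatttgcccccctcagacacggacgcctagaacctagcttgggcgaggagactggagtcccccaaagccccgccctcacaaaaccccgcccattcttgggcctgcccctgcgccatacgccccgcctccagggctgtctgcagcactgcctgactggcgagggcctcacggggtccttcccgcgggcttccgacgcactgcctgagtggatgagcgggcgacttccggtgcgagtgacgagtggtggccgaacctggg
Psme4 (chr11:30771525-30771794, plus strand): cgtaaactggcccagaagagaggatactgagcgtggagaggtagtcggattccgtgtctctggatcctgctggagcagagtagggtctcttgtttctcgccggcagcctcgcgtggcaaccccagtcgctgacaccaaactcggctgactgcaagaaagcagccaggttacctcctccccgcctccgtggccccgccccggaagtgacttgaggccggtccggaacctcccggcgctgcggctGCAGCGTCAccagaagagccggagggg

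Among the alpha subunits of the core, Psma1, Psma2, Psma3 and Psma6 rose and Psma4, Psma5, Psma7 and Psma8 did not pass the threshold. Psma6 had the largest rise of the core, with 161, 157 and 159 CPM in stretch libraries and 122, 128 and 121 CPM in control libraries. Its stretch libraries all lay above its control libraries, at a log2 fold change of 0.36 ± 0.04 (SE, 1.28-fold, adjusted p = 3.11e-04, edgeR's quasi-likelihood test). On mm10, Psma6 spans chromosome 12 from 55398825 to 55418459, wholly inside the span the deposited table gives to Mir1198, whose own log2 fold change was 0.90, and how reads in shared bases were assigned is not stated. Psma3 had 179, 178 and 182 CPM in stretch against 147, 157 and 149 CPM in control libraries, again without overlap. Its log2 fold change was 0.25 ± 0.04 (adjusted p = 0.00207, edgeR). Psma2 rose by 0.18 ± 0.04 and Psma1 by 0.13 ± 0.04 on the log2 scale, with adjusted p of 0.0099 and 0.0362 (edgeR). Scaled by library totals alone, both calls were lost, at 0.09 (adjusted p = 0.156) for Psma2 and 0.04 (adjusted p = 0.557) for Psma1. Psma4 was higher in each stretch library than in any control library, at 101 to 105 CPM in stretch against 92.0 to 97.6 CPM in control, yet missed the threshold (log2 fold change 0.10, adjusted p = 0.0957). Psma5 and Psma7 had log2 fold changes of 0.04 and 0.06 (adjusted p = 0.518 and 0.305). Psma8, the germline relative of Psma7, had 166 to 215 counts in stretch and 154 to 230 in control libraries. Its log2 fold change of −0.11 ± 0.18 is uncertain at these counts, and whether it takes reads from Psma7 was not tested.

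Of the beta subunits Psmb2, Psmb4, Psmb5 and Psmb7 rose, and Psmb1, Psmb3 and Psmb6 did not pass. Psmb7, which carries the trypsin-like site, had 147, 149 and 150.5 CPM in stretch libraries and 127, 129.5 and 128 CPM in control libraries. The groups were clearly apart, and its log2 fold change was 0.21 ± 0.04 (1.16-fold, adjusted p = 0.00282, edgeR). Psmb4, a structural beta subunit, had 192, 201 and 207 CPM in stretch and 176, 177 and 175 CPM in control libraries, a log2 fold change of 0.19 ± 0.04 (adjusted p = 0.00946, edgeR). With libraries scaled by their totals it was 0.09 and missed the threshold (adjusted p = 0.145). Psmb5, which carries the chymotrypsin-like site and is the main target of proteasome inhibitor drugs, had 109, 109.9 and 117 CPM in stretch and 100.1, 105 and 100.2 CPM in control libraries. All stretch libraries were above the control libraries, by a small margin (log2 fold change 0.14 ± 0.05, 1.10-fold, adjusted p = 0.0391, edgeR). The 109 bases of Mir686 lie wholly inside the span of Psmb5. Mir686 had 1803, 2222 and 1974 counts in stretch and 1666, 1571 and 1582 in control libraries, at a log2 fold change of 0.17. How reads in these shared bases were assigned is not stated. Psmb6, which carries the caspase-like site, had 104, 100.2 and 111 CPM in stretch and 99.0, 105 and 100.4 CPM in control libraries. Its groups overlapped and its log2 fold change was 0.05 ± 0.05 (adjusted p = 0.472). Psmb2 rose by 0.12 ± 0.04 on the log2 scale (adjusted p = 0.0459, edgeR), while Psmb1 and Psmb3 had values of 0.02 and 0.09 (adjusted p = 0.792 and 0.187). Psmb11, the thymus-specific beta subunit, had at most 8 counts in a stretch library and 3 in a control library and was not tested. With libraries scaled by their totals, Psmb2 was at 0.02 (adjusted p = 0.676) and Psmb5 at 0.05 (adjusted p = 0.465). Psma1, Psmb2 and Psmb5 were also the core calls that leaving out a library could end. Psma1 passed the threshold in no fit that left out 1 library other than control replicate 3, and Psmb2 and Psmb5 in none other than that without stretch replicate 2, and the adjusted p reached 0.127, 0.134 and 0.129 (edgeR). The core genes that rose then numbered 5 without stretch replicate 1, stretch replicate 4, control replicate 2 or control replicate 4, 6 without control replicate 3 and 7 without stretch replicate 2.

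In the cap the genes that rose were those of the ATPase base, with 5 of 6, and of the lid, with 6 of 8. These shares were 83.3% and 75.0%, against 21.4% of all genes tested, which were not matched to these genes for level. The shares that rose by more than 1.2-fold were 16.7% and 62.5%, against 15.4% of all genes tested. The 3 other base subunits and the 3 base assembly chaperones did not pass the threshold. Measured per library, the ATPase base stood at 0.21, 0.18 and 0.25 in stretch and −0.02, 0.02 and −0.00 in control libraries on the log2 scale of the class medians. Psmc6 had the largest rise of the ATPases, with 151, 155 and 158 CPM in stretch against 127, 126 and 124 CPM in control libraries. No library of one group came near those of the other, and the log2 fold change was 0.30 ± 0.04 (1.23-fold, adjusted p = 7.22e-04, edgeR). Psmc5 had 100.3, 104 and 104 CPM in stretch and 81.9, 90.7 and 86.1 CPM in control libraries, a log2 fold change of 0.25 ± 0.05 (adjusted p = 0.0041). Psmc1, Psmc2 and Psmc4 rose by 0.19, 0.20 and 0.25 on the log2 scale. With libraries scaled by their totals, Psmc1 (0.10, adjusted p = 0.102) and Psmc2 (0.11, adjusted p = 0.0622) missed the threshold. Psmc3 was the ATPase that did not pass (0.06, adjusted p = 0.328). Psmc3ip had 113, 220 and 142 counts in stretch and 149, 129 and 142 in control libraries, with no difference that these counts resolve (0.01 ± 0.20 on the log2 scale, adjusted p = 0.961).

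Psmd8, a lid subunit, showed the largest difference of all proteasome genes. It had 522, 481 and 534 CPM in stretch libraries and 313, 325 and 296 CPM in control libraries, means of 512 ± 27.8 and 311 ± 14.4 (SD, n = 3 each). The lowest stretch library was far above the highest control library. The log2 fold change was 0.72 ± 0.06 (1.64-fold, adjusted p = 7.61e-05, edgeR's quasi-likelihood test), and it stayed between 0.68 and 0.77 when any library was left out. Psmd8 spans chromosome 7 from 29174187 to 29180673 on mm10. Psmd11, a lid subunit that helps hold core and cap together, had 217, 217 and 235 CPM in stretch against 175, 177 and 159.8 CPM in control libraries. These groups were also apart (log2 fold change 0.38 ± 0.06, 1.31-fold, adjusted p = 9.53e-04, edgeR).

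Psmd14, the deubiquitinating enzyme of the lid, had 106, 96.3 and 97.4 CPM in stretch libraries and 76.8, 80.3 and 79.2 CPM in control libraries. It rose by 0.34 ± 0.05 on the log2 scale (1.27-fold, adjusted p = 9.90e-04, edgeR), with no overlap. Psmd12 had 110.5, 109.6 and 111 CPM in stretch and 89.1, 88.8 and 90.6 CPM in control libraries, the tightest replicates of the lid subunits given here. Its log2 fold change was 0.30 ± 0.04 (1.23-fold, adjusted p = 5.04e-04, edgeR). Psmd6 and Psmd7 rose by 0.30 and 0.23 (1.24-fold and 1.17-fold). The lid subunits Psmd3 and Psmd13 had log2 fold changes of 0.05 and 0.02 (adjusted p = 0.446 and 0.797). Psmd1 and Psmd2, the scaffold subunits of the base, lay at 211 to 216 and 439.9 to 460.4 CPM in stretch against 197 to 205 and 404 to 429 CPM in control libraries. They had log2 fold changes of 0.08 and 0.11 (adjusted p = 0.146 and 0.0769), and Psmd2 passed the threshold with DESeq2 (adjusted p = 0.0282). Psmd4, a ubiquitin receptor of the base, had 0.06 (adjusted p = 0.357). Of the base chaperones, Psmd5 and Psmd9 had values of −0.02 and −0.08 (adjusted p = 0.817 and 0.36). Psmd10, also known as gankyrin, had 27.4, 24.3 and 26.8 CPM in stretch and 22.6, 23.8 and 24.2 CPM in control libraries. Its stretch libraries lay above its control libraries, with 0.15 ± 0.06 on the log2 scale and an adjusted p of 0.0887.

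**Figure D3:**
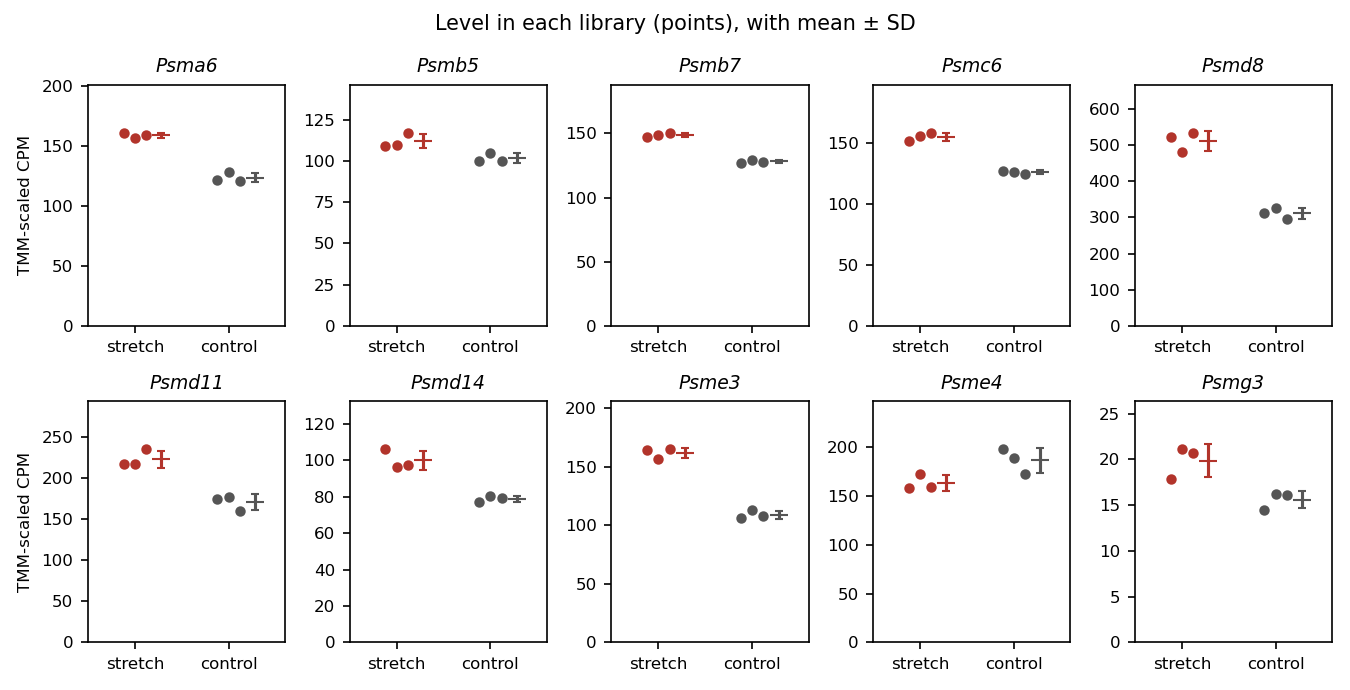
TMM-scaled CPM (vertical axes, from 0) of 10 proteasome genes in each of 3 stretch and 3 control libraries, with mean and SD beside the points. The groups are apart in all panels other than Psme4, where the highest stretch library (173 CPM) meets the lowest control library (173 CPM).

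The alternative activators did not move together. Psme3, which forms a nuclear activator that works without ATP and ubiquitin, had 164, 157 and 165 CPM in stretch libraries and 106, 113 and 108 CPM in control libraries. Every stretch library was well above every control library, with means of 162 ± 4.63 and 109 ± 3.82 CPM (SD, n = 3 each). The log2 fold change was 0.57 ± 0.05 (1.49-fold, adjusted p = 7.67e-05, edgeR), and between 0.55 and 0.61 when any library was left out. Psme3 lies on chromosome 11 from 101316251 to 101323530. Psme4, the large nuclear activator linked to histone breakdown, had 158, 173 and 159 CPM in stretch and 198, 189 and 173 CPM in control libraries. The groups met at their edges. Of the 45 tested genes, which leave out the immunoproteasome subunits, Psme4 alone fell, by 0.19 ± 0.06 on the log2 scale (adjusted p = 0.0372, edgeR). That call was lost without stretch replicate 1 (adjusted p = 0.111), stretch replicate 4 (0.118), control replicate 2 (0.139) or control replicate 3 (0.0981), and with DESeq2's size factors in edgeR (0.0501).

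Psme1 and Psme2 encode the interferon-inducible activator that works with the immunoproteasome. Psme1 had 59.9, 55.9 and 58.1 CPM in stretch libraries and 61.1, 61.7 and 62.4 CPM in control libraries. Of the 45 tested genes, which leave out the immunoproteasome subunits, only Psme1 had every stretch library below every control library. Its log2 fold change of −0.09 ± 0.04 missed the threshold all the same (adjusted p = 0.135). With libraries scaled by their totals alone, it was −0.18 and passed (adjusted p = 0.00961, edgeR). Psme2 had 66.6, 62.9 and 65.7 CPM in stretch and 59.6, 64.7 and 59.9 CPM in control libraries, which overlapped (0.08 ± 0.05, adjusted p = 0.214). Psmf1, an inhibitor of the core, had 38.4, 42.6 and 42.1 CPM in stretch and 40.8, 42.9 and 41.8 CPM in control libraries. Its log2 fold change was −0.03 ± 0.05 (adjusted p = 0.734).

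Of the 4 core assembly chaperones, which pair up to guide the alpha ring, only Psmg3 rose (25.0%, against 21.4% of all genes tested). It had 17.8, 21.1 and 20.7 CPM in stretch and 14.5, 16.2 and 16.1 CPM in control libraries. The groups did not overlap, and the log2 fold change was 0.35 ± 0.09 (1.28-fold, adjusted p = 0.0104, edgeR). With libraries scaled by their totals it was 0.26 and missed the threshold (adjusted p = 0.0535). Its partner Psmg4 had 6.1, 7.47 and 6.37 CPM in stretch and 5.77, 6.07 and 5.61 CPM in control libraries (0.19 ± 0.12, adjusted p = 0.214). Psmg1 and Psmg2, which form the other pair, had log2 fold changes of 0.04 and −0.10 (adjusted p = 0.657 and 0.247). Pomp, the chaperone of the beta rings and no Psm gene by name, had 83.8, 80.1 and 80.1 CPM in stretch against 70.2, 75.7 and 71.2 CPM in control libraries. It rose by 0.17 ± 0.05 (adjusted p = 0.0208, edgeR), a call that was lost without stretch replicate 1 (adjusted p = 0.0616), control replicate 2 (0.0799) or control replicate 4 (0.0705), and with libraries scaled by their totals (0.25).

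Levels of different genes were compared in the deposited RPKM values (reads scaled for gene length and library size), which are scaled by library totals and not by TMM. The 14 constitutive core subunits lay within a narrow band, with a highest level 2.38, 2.45 and 2.41 times the lowest in stretch libraries and 2.17, 2.14 and 2.23 times in control libraries. Their median was 111, 115 and 115 RPKM in stretch and 110.4, 113 and 112 RPKM in control libraries, and Psmb4 was highest in each. The 17 base and lid subunits had medians of 83.7, 84.6 and 87.0 RPKM in stretch and 75.0, 78.2 and 79.8 RPKM in control libraries. The ratio of the cap's median to the core's was thus 0.752, 0.734 and 0.754 in stretch libraries and 0.679, 0.691 and 0.714 in control libraries, without overlap. How often such ratios of other gene sets stay apart in these libraries was not computed. Psmd8 stood apart from the other cap subunits in both groups, with 304 ± 11.1 RPKM in stretch and 196 ± 8.52 RPKM in control libraries (SD, n = 3 each), the highest of all proteasome genes. The coefficient of variation across base and lid subunits was 60.6%, 55.7% and 60.4% in stretch and 41.6%, 42.7% and 39.1% in control libraries, and across core subunits 24.1%, 24.9% and 25.0% in stretch and 22.0%, 21.5% and 22.1% in control libraries. The values for base and lid subunits include Psmd8, which was the highest of them in every library. Psmd2, the next highest, had 128, 133 and 134 RPKM in stretch and 124, 135 and 129 RPKM in control libraries. The lowest of them had 56.9, 57.3 and 56.1 RPKM in stretch and 46.7, 49.3 and 49.6 RPKM in control libraries. Coefficients without Psmd8 were not computed, so the difference between the groups may rest on that gene alone. It is not a result about cap subunits at large.

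Assembly factors and the inhibitor were less abundant per length than the median core or cap subunit in every library. Psmg1 to Psmg4 averaged 11 to 21.2 RPKM in stretch and 10.2 to 18.6 RPKM in control libraries, and Psmf1 10.4 RPKM in stretch and 11.3 RPKM in control libraries. The base chaperones Psmd5, Psmd9 and Psmd10 averaged 10.7 to 22.7 RPKM in stretch and 12 to 24.4 RPKM in control libraries. Among the activators, Psme1 averaged 53.2 RPKM in stretch and 60.2 RPKM in control libraries, Psme3 55.5 RPKM in stretch and 39.6 RPKM in control libraries, and Psme4 22.8 RPKM in stretch and 27.6 RPKM in control libraries. Ratios between activators did not overlap between the groups. The ratio of Psme3 to Psme1 in RPKM was 1.02, 1.05 and 1.06 in stretch libraries and 0.645, 0.684 and 0.645 in control libraries. The ratio of Psme1 to Psme2, the subunits of a common ring, was 0.899, 0.889 and 0.885 in stretch and 1.03, 0.954 and 1.04 in control libraries. The share of gene pairs at large whose ratios do not overlap was not computed.

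**Figure D4:**
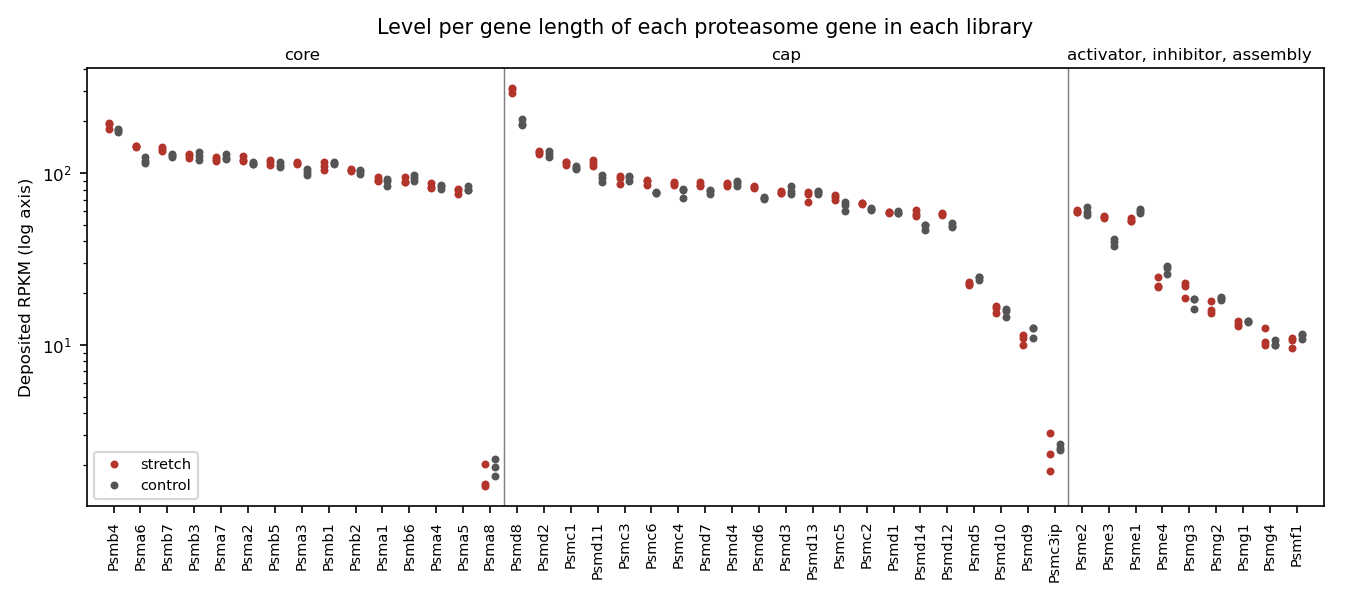
Deposited RPKM (vertical log axis) of 45 proteasome genes in each library, ordered within class by their mean in stretch libraries. Core subunits other than Psma8 lie between 75.6 and 194 RPKM, with Psmb4 highest at 173 to 194 RPKM. Psmd8 stands above the core in each library, with 291 to 313 RPKM in stretch and 189 to 206 RPKM in control libraries.

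Of the 3 immunoproteasome subunits, which replace the catalytic beta subunits after interferon, 2 fell (66.7%) and none rose. Of all genes tested, 22.6% fell and 21.4% rose. Psmb9 had 3.5, 3.79 and 3.38 CPM in stretch and 4.89, 6.37 and 4.62 CPM in control libraries, and it fell by 0.57 ± 0.16 on the log2 scale (adjusted p = 0.017, edgeR), which missed the threshold without stretch replicate 4 (0.0574) or control replicate 3 (0.0586). Psmb10 had 16.3, 17.7 and 16.9 CPM in stretch and 20, 24.5 and 20.2 CPM in control libraries, and it fell by 0.34 ± 0.09 (adjusted p = 0.0136, edgeR). Psmb8 had 18.8, 19.0 and 17.9 CPM in stretch and 21.8, 22.0 and 19.4 CPM in control libraries, lower in each stretch library without passing the threshold (−0.18 ± 0.07, adjusted p = 0.0627). The constitutive subunit exceeded its counterpart in every library. In RPKM, Psmb5 was 8.12, 8.11 and 9.16 times Psmb8 in stretch libraries and 6.46, 6.68 and 7.24 times in control libraries. Psmb6 was 20.6 to 25.5 times Psmb9 in stretch and 12.8 to 16.9 times in control libraries. Psmb7 was 11 to 11.8 times Psmb10 in stretch and 6.93 to 8.34 times in control libraries, and none of these ranges overlapped. How often ratios of other gene pairs stay apart in these libraries was not computed.

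Genes that act beside the proteasome were followed in 6 lists of 47 genes in all, with 22 that rose (46.8%), 10 that fell (21.3%) and 15 under the threshold. Over all genes tested the shares were 21.4% higher and 22.6% lower, so the share that fell was near that of genes at large. Of 9 proteasome proteins without a Psm symbol 6 rose and none fell. Txnl1, a thioredoxin-like protein bound to the cap, had 165, 157 and 165 CPM in stretch against 128, 128 and 124 CPM in control libraries (log2 fold change 0.36 ± 0.04, adjusted p = 3.56e-04, edgeR). Usp14, a deubiquitinase of the cap, had 107, 98.9 and 98.3 CPM in stretch and 78.6, 82.2 and 80.1 CPM in control libraries (0.34 ± 0.05, adjusted p = 8.98e-04). Adrm1, a ubiquitin receptor of the cap, had 137, 136 and 144 CPM in stretch and 121, 121 and 119 CPM in control libraries (0.21 ± 0.04, adjusted p = 0.00492), a call lost with libraries scaled by their totals (adjusted p = 0.06). In all 3 of these genes the groups were apart. Of 7 shuttle proteins that carry ubiquitinated cargo, or in the case of Nub1 other modified proteins, to the proteasome, 5 rose and 2, Ubqln2 and Nub1, fell. The call for Nub1 held in every fit without 1 library, while that for Ubqln2 (adjusted p = 0.0303, edgeR) was lost without stretch replicate 2 (0.0902), stretch replicate 4 (0.104), control replicate 2 (0.107) or control replicate 4 (0.0782). Ubqln1 had 200.1, 192 and 195 CPM in stretch and 164, 158 and 164 CPM in control libraries (0.28 ± 0.04, adjusted p = 0.00108). Of 6 ubiquitin and activating-enzyme genes 3 rose and none fell. These included Uba6, with 38.8, 38.0 and 35.2 CPM in stretch and 32.6, 30.8 and 28.8 CPM in control libraries, and Uba1, the main activating enzyme, with 535, 507 and 548 CPM in stretch and 463, 484 and 466 CPM in control libraries. Their log2 fold changes were 0.28 ± 0.06 and 0.17 ± 0.05, and the call for Uba1 was lost without stretch replicate 1 (adjusted p = 0.0586), stretch replicate 4 (0.0723), control replicate 2 (0.077) or control replicate 4 (0.0638), and with libraries scaled by their totals (0.194).

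The segregase Vcp and its cofactors, which pull ubiquitinated proteins out of membranes and complexes, included 4 of 11 that rose (36.4%) and 3 that fell (27.3%), against 21.4% and 22.6% of all genes tested, and had a median log2 fold change of 0.01. Ubxn4, an endoplasmic reticulum cofactor, had 211, 202 and 209 CPM in stretch and 165, 155 and 155 CPM in control libraries (0.39 ± 0.05, adjusted p = 2.92e-04, edgeR). Ufd1l had 70.6, 70.9 and 71.3 CPM in stretch and 60.4, 61.0 and 64.6 CPM in control libraries (0.19 ± 0.04, adjusted p = 0.00818), a call lost with libraries scaled by their totals (adjusted p = 0.138). Of 12 genes of the Nfe2l1 pathway 5 rose, 3 fell and 4 did not pass, with a median of −0.03. Nfe2l1 itself had 444, 427 and 420.5 CPM in stretch and 376, 384 and 369.9 CPM in control libraries. These groups did not overlap (0.19 ± 0.04, 1.14-fold, adjusted p = 0.00829, edgeR), but with libraries scaled by their totals the change was 0.10 (adjusted p = 0.0918). Ddi2, the protease that cleaves Nfe2l1 into its active form, had 205, 199.7 and 225 CPM in stretch and 152, 150.2 and 159 CPM in control libraries (0.45 ± 0.06, adjusted p = 3.95e-04). Maff, a small Maf partner, had 265, 219.5 and 249 CPM in stretch and 76.9, 76.6 and 82.6 CPM in control libraries. This was the largest difference of the 6 lists (log2 fold change 1.63 ± 0.07, adjusted p = 2.34e-05, edgeR). Mafg, another small Maf, had 69.9, 66.6 and 70.4 CPM in stretch and 53.9, 54.1 and 54.0 CPM in control libraries (0.35 ± 0.04, adjusted p = 3.94e-04). Syvn1 and Sel1l, the ubiquitin ligase and its partner that extract proteins from the endoplasmic reticulum, and Keap1 were the 3 that fell. The calls for Sel1l and Keap1 held in every fit without 1 library. That for Syvn1 (adjusted p = 0.0299, edgeR) was lost without stretch replicate 1 (0.124), stretch replicate 2 (0.0904), control replicate 2 (0.052), control replicate 3 (0.0972) or control replicate 4 (0.0669), and with DESeq2 (0.0774).

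**Figure D5:**
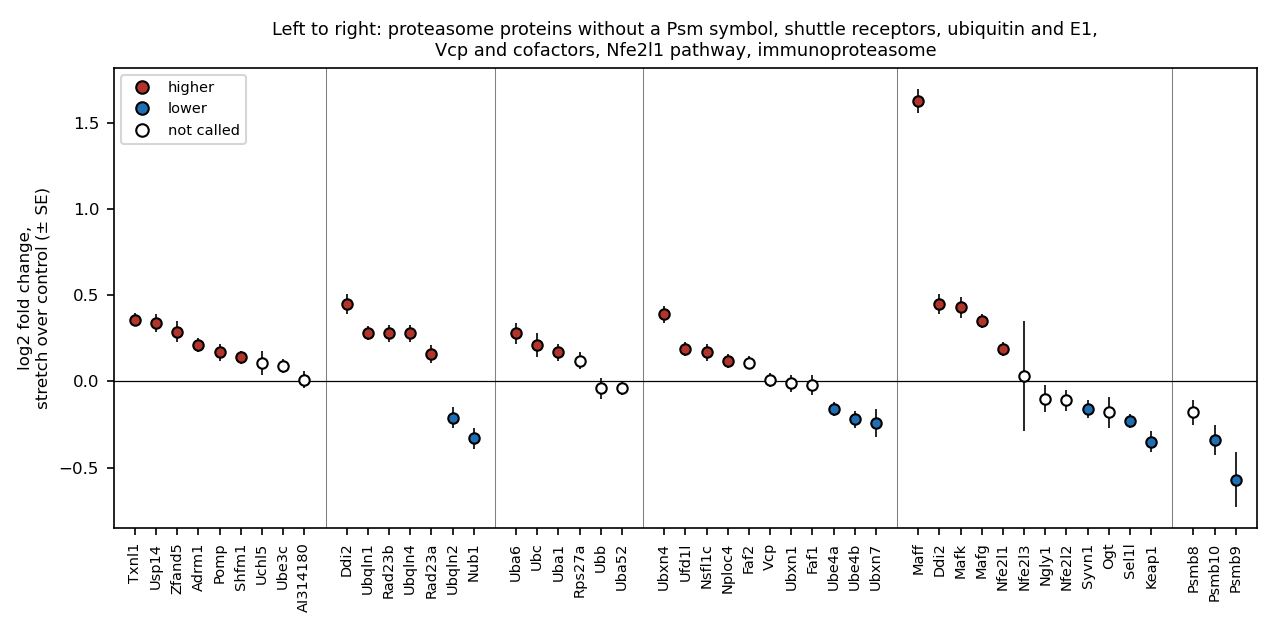
Fitted log2 fold change of stretch over control (vertical axis) with its standard error for the genes of 6 lists, where Ddi2 stands in 2 lists. Red points rose, blue points fell and white points did not pass the threshold, and Maff stands highest at 1.63.

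The authors' deposited table of edgeR results, which used their own test, held all 46 genes. Of these, 18 had a false discovery rate under 0.05 and were higher with stretch in the authors' deposited table, and 1 was lower. Of all 23336 genes of that table, 5712 had a false discovery rate under 0.05 in either direction. The 3 genes called above and not in the authors' deposited table were Psma1, Psmb2 and Psmb5.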

How the data were processed

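RNA-seq was made from 3 stretch and 3 control libraries of total RNA. Per the submitters' processing notes, TopHat2 2.1.0, featureCounts and edgeR were used, and GRCm38 and mm10 are named as builds. No label or file header states how strand was handled. Reads in bases that overlapping genes share therefore cannot be told apart. By the spans given, 11 of the 46 members overlap another row, some of them by little. Psme1 shares 4 bases with Fam158a, Psmc3ip 67 with Mlx and Psma4 96 with AY074887. Psmb11, Psme2, Psmg1 and Psmg2 overlap only rows whose given spans run over 22931808 to 102203539 bases. The deposited table of raw counts per gene is unnormalized, per the file headers. The authors also deposited RPKM values, log2 fold changes and log2 CPM, a likelihood ratio test score, and p-values with false discovery rates, per the file headers. Gene coordinates are those of the deposited table.

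From the counts, edgeR 4.0.16 in R 4.3.3 was run over all 23337 genes: filterByExpr, TMM scaling, a quasi-likelihood fit with group as the only term, and Benjamini-Hochberg adjustment over 14222 genes. The standard error is the log2 fold change divided by the square root of F. The fitting code was tested on simulated data. Alternatives were RLE size factors, library size only, no filter, DESeq2 1.42.0, limma-voom (limma 3.58.1), a replicate block and 6 fits without 1 library. Psma8, Psmc3ip and Psmb11 had the fewest counts of the members and are the least precise. The members and lists were chosen with earlier results of these data known. Any member could be named. Values per library were given for the called members of each subclass with the 2 smallest p, the largest change of each class, members called against their class, the catalytic subunits, Psmd14, the activators and Psmf1, and for the 2 smallest p of each companion list with Nfe2l1, Pomp and Adrm1. Genes singled out otherwise were chosen after their values were seen. The deposited table uses the older symbols Shfm1, AI314180 and Ufd1l.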

Additional observations from a re-analysis of the deposited data

How the results depend on the processing

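The library scaling mattered most. Scaled by library totals alone, the median log2 fold change of all genes was −0.11 (−0.01 with TMM), 32.7% of called genes were higher (48.6% with TMM), and 13 proteasome genes rose, 2 fell, 3 core and 1 activator or assembly gene rose, 2 activator or assembly genes fell and 12 companion genes rose. The medians were 0.02 for all proteasome genes and for the core, 0.10 for the cap and −0.05 for activators and assembly. The members' median exceeded that of all genes by 0.13 under both scalings, and 38 of 45 members lay above it. A change of scaling moves all genes by about the same amount. Neither value could therefore differ much between the scalings, and their agreement is no further support. Under library totals 13 genes that were never called changed sign: Psma5 (−0.05), Psma7 (−0.03), Psmb1 (−0.08), Psmb3 (−0.01), Psmb6 (−0.04), Psmc3 (−0.03), Psmc3ip (−0.07), Psmd1 (−0.01), Psmd3 (−0.05), Psmd4 (−0.04), Psmd13 (−0.07), Psme2 (−0.01) and Psmg1 (−0.05). With RLE size factors no member fell, so the count of lower members was 0, and the medians were 0.14 for all members and 0.21 for the cap. With DESeq2 the cap's median was 0.21. Without a filter 5 core genes rose. Psmd5 was 0.002 with RLE, 0.001 with DESeq2, 0.01 without control replicate 2 and 0.02 without stretch replicate 2. Psmf1 was 0.03 without stretch replicate 1, Psmc3ip −0.001 without control replicate 2 and −0.17 without stretch replicate 2, and Psmd13 −0.01 without stretch replicate 4; over the fits without 1 library they ranged from −0.05 to 0.02 (Psmd5), −0.04 to 0.03 (Psmf1), −0.17 to 0.17 (Psmc3ip) and −0.01 to 0.08 (Psmd13). The TMM factors were 0.9529 to 0.9914 in stretch and 1.0197 to 1.0448 in control libraries. Leaving them out is what lowered the values under library totals. Why the factors differed between the groups, and the cause of the other shifts, was not tested.

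Leaving out 1 library at a time gave 18 to 21 proteasome genes that rose and 0 to 1 that fell, 5 to 7 in the core, 11 to 12 in the cap, 15 to 21 companion genes that rose and 7 to 9 that fell, and over all genes 2348 to 3022 higher and 2408 to 2873 lower. The medians were 0.11 to 0.14 for all members and 0.17 to 0.21 for the cap. Of the 21 genes that rose, 18 were called in every such fit. Replicate numbers 2 and 4 occur in both groups, with no label saying that they mark a shared isolation. Deviations from the group means correlated by 0.212 and 0.114 for the same numbers, and by −0.204 to 0.18 for different numbers. With the replicate number as a block, 20 proteasome genes rose and 0 fell, their median was 0.15, Psmf1 was 0.04, and 6 calls of named genes were lost: Psmb2 (adjusted p = 0.101), Psme4 (0.0605), Psmb9 (log2 fold change −0.41, 0.089), Psmb10 (−0.22, 0.0634), Uba1 (0.0559) and Syvn1 (0.193).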
